A study of Mus musculus with 12 samples.

Results

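The set described here holds 10 genes of the ovulatory protease system of the mouse follicle. They are 7 proteases (Adamts1, Adamts4, Adamts5, Adamts9, Ctsl, Plat and Plau) and 3 protease inhibitors (Serpine2, Timp1 and Timp3). They were chosen by symbol, and all 10 were found among the 35856 genes listed in at least 1 of the deposited tables and among the 26382 listed in both.

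At ovulation the follicle wall is thinned and the matrix around the cumulus-oocyte complex is remodelled by secreted proteases. ADAMTS proteases are secreted metalloproteases that cut proteoglycans such as versican, urokinase and tissue plasminogen activators (Plau and Plat) turn plasminogen into plasmin, and cathepsin L (Ctsl) is a lysosomal cysteine protease that can also be secreted. Their inhibitors are made in the same follicle: Serpine2 (protease nexin 1) binds thrombin and plasminogen activators, and Timp1 and Timp3 block matrix metalloproteases, with Timp3 also acting on ADAMTS proteases.

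The libraries come from immature female mice primed with eCG, which makes follicles grow, and then given hCG, which stands in for the LH surge. Mural granulosa cells (MGCs, which line the follicle wall) and cumulus cells (which surround the oocyte) were collected at 2 h post-hCG. WT mice were C57/BL6, and knockout mice (Sphk1/2gc-/-) were Sphk1-/-; Sphk2 fl/fl; Fshr-Cre, so that both sphingosine kinases, which make sphingosine-1-phosphate (S1P), were targeted. Sphk1 is deleted in all cells of these mice and Sphk2 where Fshr-Cre acts, in granulosa cells, and no control carrying Fshr-Cre alone is named in the sources used here. There were 3 libraries in each of the 4 groups, and the labels do not say whether libraries come from separate or pooled animals, so that the p-values measure the spread between these libraries.

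The targeted genes and the library quality were examined first. Sphk1 was at 1.68, 1.89 and 0.460 FPKM in WT MGCs against 0.432, 0.557 and 0.104 FPKM in MGCs labelled knockout. In cumulus cells it was at 0.0911, 0.0699 and 0.0954 FPKM in WT (6 to 8 reads). In the libraries labelled knockout it was at 0.0778, 0.456 and 0.557 FPKM (7, 43 and 51 reads). This low transcript was thus not lower under the knockout label, so that these libraries are called labelled KO throughout. Sphk2 did not separate the genotypes in either cell type (5.18 to 5.86 FPKM in WT and 4.51 to 6.29 in labelled KO MGCs). At the protein level the paper reports loss of SphK2 in granulosa cells, by immunofluorescence and western blotting. It also reports that the rise of S1P in ovaries after hCG was absent in the knockout. The libraries held 16100341 to 19761600 reads. Labelled KO library 3 of the MGCs stood apart, correlating at 0.909 to 0.937 with each of the others of that cell type and a summed level of 7 cumulus expansion genes of 719 FPKM, against 5116 and 6069 in the other labelled KO MGC libraries. The genotype results of MGCs were therefore also computed without it, and the values without it are given where they differ most.

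All 10 genes are protein coding, and their positions are those of GENCODE M21 on GRCm38. Adamts1 (chromosome 16, 85793827 to 85803113, minus strand) and Adamts5 (chromosome 16, 85856173 to 85901828, minus strand) are neighbours, 53059 bases apart with 0 protein-coding genes between them. The other ADAMTS genes are Adamts4 (chromosome 1, 171250421 to 171260637) and Adamts9 (chromosome 6, 92772699 to 92943492). Plat lies on chromosome 8 (22757727 to 22782844), Plau on chromosome 14 (20836660 to 20843385) and Ctsl on chromosome 13 (64359337 to 64370890). The inhibitor genes are Serpine2 (chromosome 1, 79794197 to 79861180), Timp1 (chromosome X, 20870166 to 20874735) and Timp3 (chromosome 10, 86300372 to 86349506). Exons of Adamts4, Adamts9, Ctsl and Timp3 overlap those of a gene on the opposite strand, and as the library kit does not mark strand, reads there cannot be told apart. Those of Ctsl also overlap exons of a gene on the same strand, Gm49230.

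RefSeq promoters (GRCm38.p6, from 250 bases before to 50 bases after the start) were listed for 6 of the 10 genes. The 3 most abundant of these are shown because they include both genes that were higher in cumulus cells, Ctsl and Serpine2, beside Adamts1, which was higher in MGCs. Adamts1 is from chr16:85803064-85803363, Ctsl from chr13:64370471-64370770 and Serpine2 from chr1:79858616-79858915, all on the minus strand and read 5′ to 3′. Capitals mark matches, on either strand, to 7 searched motifs: the TATA box (TATAAA), the CCAAT box (CCAAT), the GC box (GGGCGG), the cAMP response element (TGACGTCA), the AP-1 site (TGANTCA), the E-box (CACGTG) and the RUNX site (TGTGGT).
Adamts1: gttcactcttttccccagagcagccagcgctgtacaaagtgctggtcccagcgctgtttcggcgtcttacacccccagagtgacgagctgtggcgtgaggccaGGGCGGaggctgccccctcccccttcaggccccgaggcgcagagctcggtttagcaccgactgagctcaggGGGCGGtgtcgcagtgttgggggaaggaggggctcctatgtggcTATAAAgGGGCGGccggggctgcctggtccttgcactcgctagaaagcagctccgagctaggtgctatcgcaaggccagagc
Ctsl: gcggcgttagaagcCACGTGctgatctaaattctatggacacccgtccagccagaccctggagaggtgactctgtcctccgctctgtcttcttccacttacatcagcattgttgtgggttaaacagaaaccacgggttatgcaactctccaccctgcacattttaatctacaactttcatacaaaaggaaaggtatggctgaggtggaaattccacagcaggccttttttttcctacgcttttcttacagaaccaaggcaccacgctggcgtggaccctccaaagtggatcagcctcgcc
Serpine2: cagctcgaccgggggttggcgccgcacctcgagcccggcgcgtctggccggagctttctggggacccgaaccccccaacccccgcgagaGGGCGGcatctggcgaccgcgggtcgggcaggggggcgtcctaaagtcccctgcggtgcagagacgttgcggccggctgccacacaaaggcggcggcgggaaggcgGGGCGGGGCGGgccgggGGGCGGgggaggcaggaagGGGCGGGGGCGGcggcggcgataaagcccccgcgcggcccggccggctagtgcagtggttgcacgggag
The Adamts1 window held TATAAA at position −32 (its first base relative to the start) and GGGCGG at 3 positions. The Serpine2 window held GGGCGG at 6 positions, some of them overlapping, and the Ctsl window held CACGTG at −236 and none of the other 6 motifs. Of 32851 promoters of the same length, 13.6% held the TATA box letters, 35.7% those of the GC box and 7.2% those of the E-box. Adamts1 is known to be induced by LH through the progesterone receptor, and Ctsl likewise, but none of the searched motifs stands for that receptor. These matches describe the letters of the windows and not the binding of a factor.

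Levels are given as FPKM, that is fragments counted for a gene divided by its exon length and by the total of its library, which allows genes to be compared within a library. In WT MGCs, Ctsl was the most abundant member at 613 ± 63.7 FPKM (mean ± SD, n = 3), followed by Serpine2 (444 ± 92.6), Plau (370.2 ± 137) and Adamts1 (200.02 ± 63.2). The ranges of Serpine2, Plau and Adamts1 overlapped their neighbours in this order. Timp1 (54.6 ± 3.09) and Adamts9 (20.5 ± 5.48) were separate from their neighbours, and Adamts4, Adamts5, Plat and Timp3 lay together between 6.60 and 13.1 FPKM. In WT cumulus cells the order was led again by Ctsl (1955 ± 314 FPKM) and Serpine2 (839.9 ± 149), and the next gene, Timp1, was at 9.94 ± 2.59. Timp1, Adamts5, Adamts1 and Adamts9 overlapped in turn. Plau stood between 0.866 and 1.18 FPKM, and Adamts4, Plat and Timp3 were at the bottom, between 0.0615 and 0.237 FPKM, which corresponds to 9 to 28 reads per library.

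**Figure D1:**
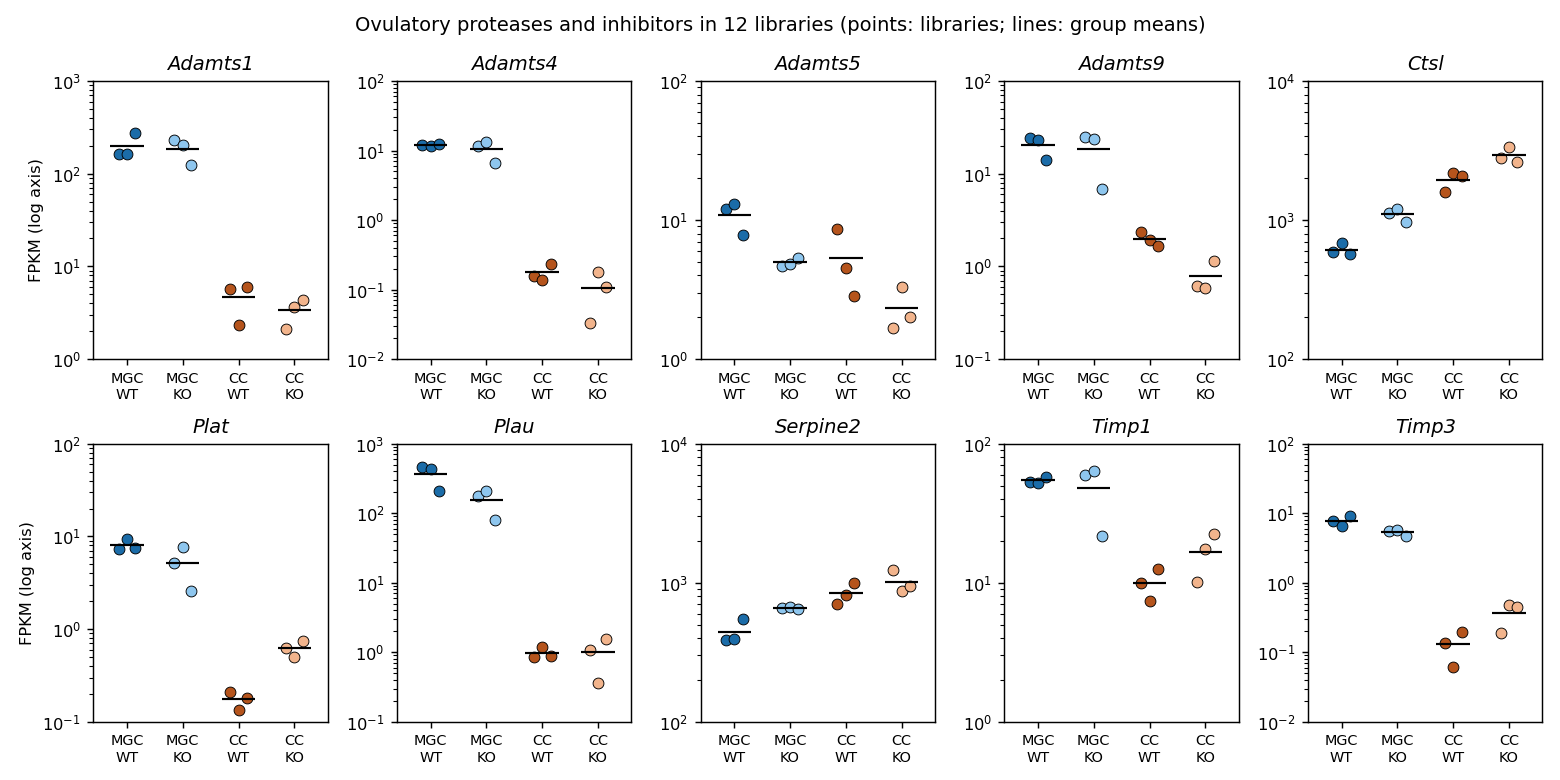
Level of each member in the 12 libraries (FPKM, log axis; points are libraries 1, 2 and 3 of each group from left to right and lines are group means; CC, cumulus cells). In WT, 7 members sit higher in all MGC than in all cumulus libraries, Ctsl and Serpine2 sit lower, and Adamts5 overlaps.

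Which of these genes differ between MGCs and cumulus cells was examined in WT first. Most of them were higher in the MGC libraries: 7 of 10 were called as higher in MGCs and 1, Ctsl, as higher in cumulus cells, at a limma adjusted p of 0.05 or less and a difference of at least 2-fold. The background was high, as 34.5% of 15339 tested genes were called as higher in MGCs and 16% as lower. The median log2 fold change was 2.88 over the members and 0.58 over all genes tested. The cell types did not overlap for 9 of 10 members, against 83.3% of all genes. Adamts4, Plat and Timp3 passed the minimum level for testing only through the MGCs, so that they had to differ.

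Among the ADAMTS genes, Adamts1 was at 163, 164 and 273 FPKM in WT MGCs against 5.66, 2.31 and 5.94 in WT cumulus cells. Its mean was 43.15 times as high in MGCs (log2 fold change on the FPKM + 1 scale 5.19, SE 0.326, limma adjusted p = 4.24e-06). Adamts4, an aggrecanase, had 12.1, 11.6 and 12.4 FPKM in MGCs and 0.155, 0.139 and 0.237 in cumulus cells, and it was the steadiest of the 4 in WT MGCs (SD 0.378). Adamts9, which also cuts versican, was at 24.1, 23.2 and 14.2 FPKM in MGCs and at 2.33, 1.94 and 1.67 in cumulus cells (log2 fold change 2.82, SE 0.207, limma adjusted p = 9.24e-06). For these 3 genes the cell types did not overlap.

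Adamts5, the chromosomal neighbour of Adamts1, did not share its contrast. Its WT values were 11.9, 13.1 and 7.75 FPKM in MGCs and 8.66, 4.54 and 2.85 in cumulus cells, so that cumulus library 1 lay above MGC library 3. The log2 difference of 0.98 (SE 0.338, limma adjusted p = 0.0276) did not reach the fold limit. It was 0.30 with each library rescaled by its median ratio to the mean library (limma adjusted p = 0.441). The level of Adamts1 was 12.5 to 35.2 times that of Adamts5 in WT MGCs and 0.509 to 2.08 times in WT cumulus cells. The product of FPKM and exon length was not whole for Adamts5 in any of the 12 libraries, so the exon length behind its values differs from that of GENCODE M21. Its level against other genes therefore carries that uncertainty, while comparisons between libraries do not.

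Plau showed the largest contrast of the set, at 458, 440.2 and 212 FPKM in WT MGCs against 0.866, 1.18 and 0.890 in WT cumulus cells. Its mean was 379 times as high in MGCs (log2 fold change 7.48, SE 0.285, limma adjusted p = 5.13e-07). Plat, the other plasminogen activator, was at 7.32, 9.35 and 7.54 FPKM in MGCs and at 0.209, 0.134 and 0.182 in cumulus cells, where it had 15 to 21 reads (log2 fold change 2.94, SE 0.124, limma adjusted p = 7.36e-07). Plau exceeded Plat 28.2- to 62.6-fold in WT MGCs and 4.14- to 8.79-fold in WT cumulus cells.

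Ctsl and Serpine2 went the other way. Ctsl was at 586, 686 and 568 FPKM in WT MGCs against 1599, 2192 and 2075 in WT cumulus cells, a mean 3.19 times as high in cumulus cells (log2 fold change −1.66, SE 0.1655, limma adjusted p = 4.85e-05). Serpine2 was at 388, 393 and 551 FPKM in MGCs and at 708, 809 and 1002 in cumulus cells. The cell types did not overlap, and its difference of −0.92 on the log2 scale (SE 0.194, limma adjusted p = 0.00294) fell short of the fold limit. With the median ratio scaling it was −1.70 and was called. Without WT MGC library 3 or without WT cumulus library 1 it was also called, at −1.09 and −1.04.

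Both TIMPs lay on the MGC side. Timp1 was at 53.2, 52.4 and 58.1 FPKM in WT MGCs against 10.0, 7.33 and 12.5 in WT cumulus cells (log2 fold change 2.37, SE 0.177, limma adjusted p = 1.02e-05). Timp3 was at 7.67, 6.60 and 9.10 FPKM in MGCs and at 0.137, 0.0615 and 0.196 in cumulus cells, where 9 to 28 reads were counted (log2 fold change 2.95, SE 0.136, limma adjusted p = 1.04e-06). The cell types did not overlap for either TIMP, so that the 3 inhibitors split, with Serpine2 on the cumulus side.

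The same contrast was present in the libraries labelled KO, where again 7 of 10 members were called as higher in MGCs (background 33.1%) and Ctsl as lower (background 14.4%). Of these 7, Adamts4 and Timp3 reached the minimum level for testing only through the MGCs, so that they had to differ here too. Without MGC library 3 of the labelled KO group, the same 8 members were called, with log2 fold changes from 1.88 (Timp1) to 6.64 (Plau) for the 7 and −1.32 for Ctsl. The median log2 fold change was 2.03 over the members and 0.58 over all genes tested. Plau was at 177, 209 and 80.1 FPKM in MGCs and at 1.08, 0.363 and 1.56 in cumulus cells (log2 fold change 6.22, SE 0.394, limma adjusted p = 1.84e-05). Adamts1 was at 233, 203 and 123 FPKM in MGCs and at 2.11, 3.66 and 4.33 in cumulus cells (log2 fold change 5.41, SE 0.3001, limma adjusted p = 1.26e-05). The cell types stayed apart for 9 of 10 members (75.6% of all genes), the exception being Timp1, for which cumulus library 3 (22.5 FPKM) lay above MGC library 3 (21.6 FPKM). The Timp1 call (log2 fold change 1.39, SE 0.451, limma adjusted p = 0.0258) was lost with the median ratio scaling (0.64, limma adjusted p = 0.275). It was also lost without MGC library 1 or 2, without cumulus library 1 or 2, and with no filter on low values (limma adjusted p of 0.0522 to 0.0934).

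**Figure D2:**
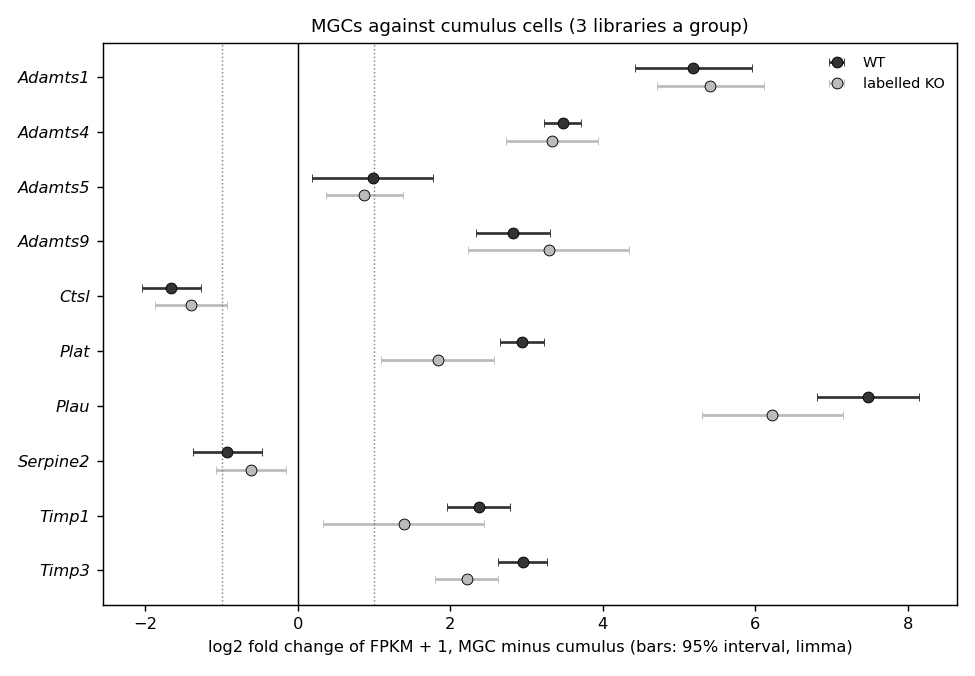
Log2 fold change of FPKM + 1 between MGCs and cumulus cells for each member, WT (dark) and labelled KO (grey), with 95% intervals from limma and dotted lines at a 2-fold change. Plau (7.48 in WT) and Adamts1 (5.19) lie furthest to the MGC side, and Ctsl (−1.66) and Serpine2 (−0.92) lie on the cumulus side.

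The contrast between cell types depends on how libraries are set beside each other, and on what else was collected. With the median ratio scaling the median of all genes moved from 0.58 to 0.15 in WT and from 0.58 to 0.13 in labelled KO libraries, and the share of calls that were higher in MGCs moved from 68.4% to 47.8% and from 69.6% to 46.8%. Relative to the median of all genes, the WT difference was 6.90 for Plau, 4.61 for Adamts1, 0.40 for Adamts5, −1.50 for Serpine2 and −2.24 for Ctsl. The sign of all 10 members was the same under both scalings in both genotypes. Markers of other cell types were also higher in MGCs. In WT the summed level of 12 leukocyte markers was 177 to 328 FPKM in MGCs and 5.98 to 56.0 in cumulus cells, and that of 12 theca and stroma markers was 201 to 379 and 19.2 to 68.4. The 9 endothelial markers summed to 15.25 to 19.2 and 1.15 to 1.85 FPKM, the 12 oocyte markers to 41.3 to 109 and 4.76 to 8.77, and the 5 erythrocyte markers to 262 to 404 and 4.37 to 26.8. The sums of 10 granulosa cell markers were 9423 to 15840 FPKM in WT MGCs and 3989 to 5170 in WT cumulus cells. Single markers differed: Fshr, Hsd17b1 and Gatm were higher in all WT cumulus libraries and Inhba overlapped. The others were higher in all WT MGC libraries, among them Amh at 113 to 174 FPKM against 0.102 to 1.90 in WT cumulus cells. The 7 cumulus expansion genes, which MGCs express as well, summed to 3826 to 4210 FPKM in WT MGCs and 376 to 843 in WT cumulus cells. They did not move as one. Tnfaip6, Ptgs2, Areg, Ereg and Btc were higher in all WT MGC libraries. Has2 (means of 15.3 FPKM in WT MGCs and 55.4 in WT cumulus cells) and Ptx3 (49.9 and 145) were called as higher in cumulus cells. Plau alone exceeded the sum of the leukocyte markers in all 6 MGC libraries and in 0 of the 6 cumulus libraries, which does not tell from which cells its transcripts came. The part of these cells in the levels of the members was not tested, and in such bulk samples fewer cells of a type and less RNA per cell cannot be told apart.

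**Figure D3:**
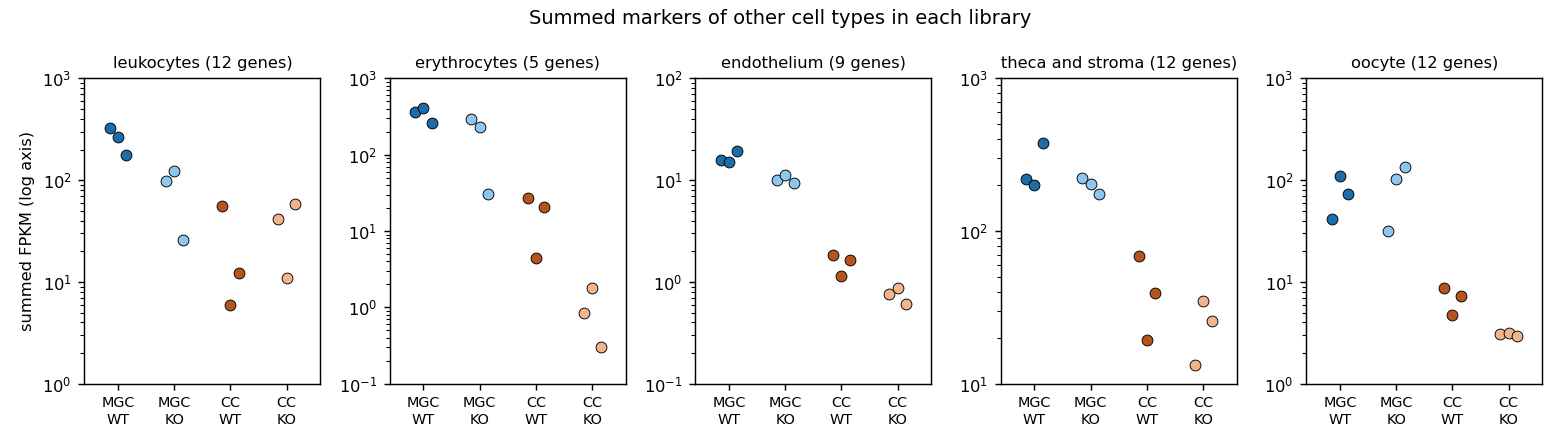
Summed FPKM (log axis) of the markers of 5 other cell types in each of the 12 libraries (points; CC, cumulus cells). In WT the 3 MGC libraries lie above the 3 cumulus libraries in each panel, and labelled KO library 3 is the lowest MGC library for leukocytes (26.1 FPKM) and erythrocytes (30.6 FPKM).

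Whether deletion of the sphingosine kinases moved these genes in MGCs was examined next. None of the 10 members was called by limma over all 6 MGC libraries, where 6 of 15279 genes (0.0393%) were called. At an unadjusted p of 0.05 or less 5 members were counted, against 9.2% of all genes, and the genotypes did not overlap for the same number of members, against 16.9% of all genes. Those 5 were Adamts5, Plau and Timp3 with lower and Ctsl and Serpine2 with higher values in labelled KO libraries. The median log2 fold change was −0.30 over the members and −0.003 over all genes tested.

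Adamts5 was at 11.9, 13.1 and 7.75 FPKM in WT MGCs against 4.67, 4.86 and 5.33 in labelled KO MGCs. The 3 labelled KO values lay close together (SD 0.339) and under every WT value, with a mean 2.21-fold lower that did not pass the test (log2 fold change −0.97, SE 0.204, limma adjusted p = 0.222). Plau was at 458, 440.2 and 212 FPKM in WT and at 177, 209 and 80.1 in labelled KO MGCs. The lowest WT library and the highest labelled KO library were close to each other, and the spread within each group was wide (log2 fold change −1.28, SE 0.438, limma adjusted p = 0.459). MGC libraries of the same replicate number deviated together only weakly (correlations of 0.220, 0.158 and 0.224), and the labels state no pairing. Blocking on that number gave Plau a limma adjusted p of 0.0948, which did not pass either.

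Ctsl was at 586, 686 and 568 FPKM in WT MGCs against 1117, 1203 and 974 in labelled KO MGCs, a mean 1.79 times as high (log2 fold change 0.84, SE 0.167, limma adjusted p = 0.190). Serpine2 was at 388, 393 and 551 FPKM in WT and at 658, 672 and 649 in labelled KO (log2 fold change 0.59, SE 0.180, limma adjusted p = 0.389). Timp3 was at 7.67, 6.60 and 9.10 FPKM in WT and at 5.54, 5.79 and 4.74 in labelled KO (log2 fold change −0.46, SE 0.162, limma adjusted p = 0.467). For all 3 the genotypes were apart, and none passed the test after adjustment.

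The other 5 members overlapped between the genotypes in MGCs. Adamts1 had means of 200.02 and 186.5 FPKM in WT and labelled KO (log2 fold change −0.11, 95% interval −0.83 to 0.61), and Adamts4 12.1 and 10.5 (−0.23, −0.80 to 0.34). Adamts9 was at 25.0, 23.95 and 6.90 FPKM in labelled KO libraries, which is on the WT level in libraries 1 and 2 and below every WT value in library 3 (log2 fold change −0.28, 95% interval −1.42 to 0.85). Timp1 behaved alike, at 59.7, 63.4 and 21.6 FPKM against 52.4 to 58.1 in WT. Plat was at 5.14, 7.72 and 2.58 FPKM against 7.32 to 9.35 (log2 fold change −0.65, SE 0.320, limma adjusted p = 0.596). The 95% interval of each of these 5 genes reached −0.80 or lower on the log2 scale, so that a decrease of that size was not excluded.

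**Figure D4:**
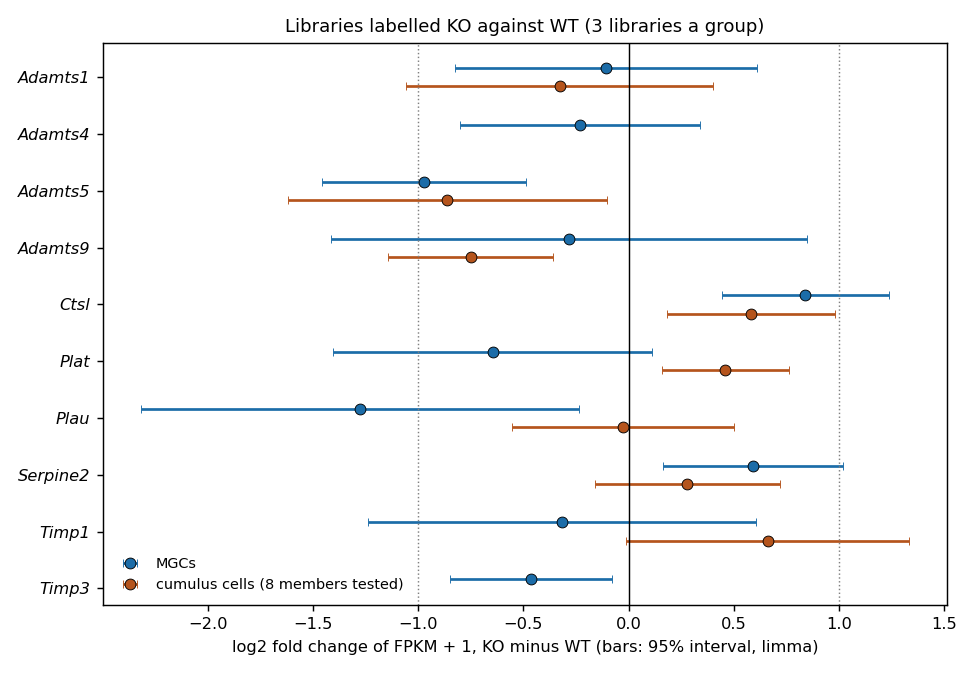
Log2 fold change of FPKM + 1 between libraries labelled KO and WT for each member in MGCs (blue, 10 tested) and cumulus cells (brown, 8 tested), with 95% intervals from limma and dotted lines at a 2-fold change. Plau (−1.28) and Adamts5 (−0.97) lie furthest to the left in MGCs, and Ctsl lies to the right in both cell types (0.84 and 0.58).

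Labelled KO library 3 held the lowest of the 6 MGC values for 7 of 10 members: Adamts1, Adamts4, Adamts9, Plat, Plau, Timp1 and Timp3. Without that library alone, 0 members were called, and the log2 fold changes of Adamts1, Adamts4, Adamts9 and Timp1 went from negative to positive (0.16, 0.04, 0.28 and 0.17). The log2 fold change of Plau shrank from −1.28 to −0.86, under the fold limit, and that of Plat from −0.65 to −0.30. Over libraries 1 and 2 of each genotype, 2 members were called as lower, Adamts5 (log2 fold change −1.23, limma adjusted p = 0.00509) and Plau (−1.22, limma adjusted p = 0.00637), where 477 of 15433 genes were called. Over these 4 libraries Ctsl (0.87, limma adjusted p = 0.0138), Serpine2 (0.77, limma adjusted p = 0.00629) and Adamts1 (0.41, limma adjusted p = 0.0398) passed the adjusted p but not the fold limit. The share of all genes that passed the adjusted p alone in this fit was not computed. It cannot be smaller than the 477 of 15433 called with the fold limit. Without it, the passing of Ctsl, Serpine2 and Adamts1 cannot be read as a result about the members. WT library 3, also left out here, did not stand apart (median correlation 0.965). It held the lowest WT values of Adamts5 and Plau and the highest of Serpine2 and Adamts1. The direction of Adamts5, Plau, Timp3, Plat, Ctsl and Serpine2 was the same with and without libraries 3.

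**Figure D5:**
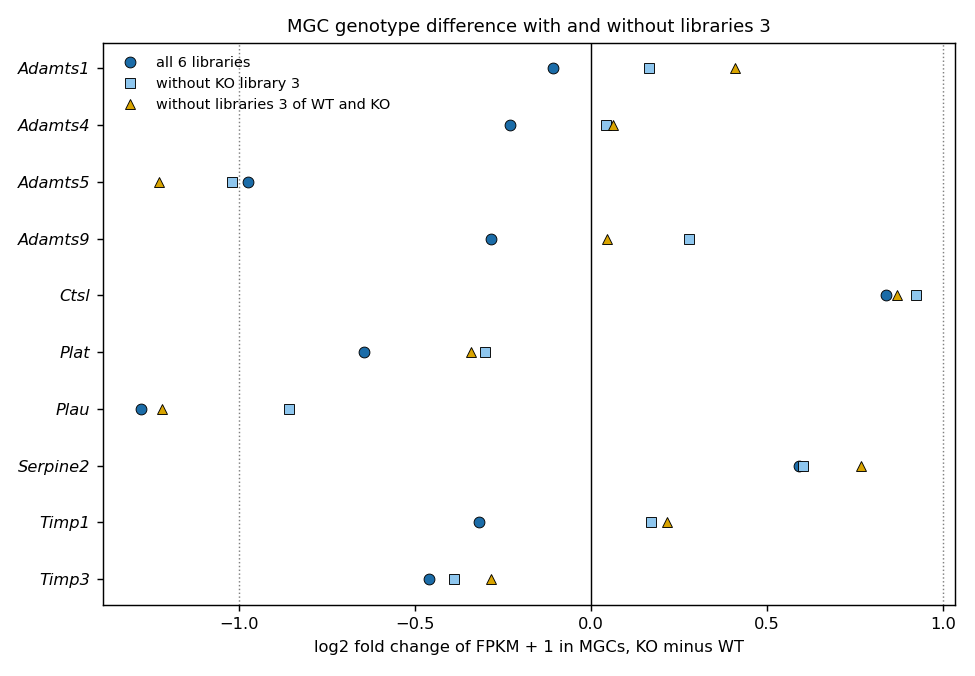
Log2 fold change of FPKM + 1 between labelled KO and WT MGCs for each member over all 6 libraries (circles), without labelled KO library 3 (squares) and without library 3 of both genotypes (triangles), dotted lines at a 2-fold change. Adamts1, Adamts4, Adamts9 and Timp1 lie below 0 over all libraries and above 0 without them, and Adamts5 (−1.23) and Plau (−1.22) lie past the fold limit without both libraries.

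The markers of 2 of 5 other cell types had sums that separated the genotypes in MGCs. The leukocyte markers summed to 177 to 328 FPKM in WT and 26.1 to 122.5 in labelled KO MGCs, and the endothelial markers to 15.25 to 19.2 and 9.36 to 11.2 FPKM. The leukocyte markers did not move as one: 5 of 12 (Cd14, Csf3r, Cxcr2, S100a8 and S100a9) were below every WT library in all 3 labelled KO libraries, while Adgre1, Csf1r and Ptprc were above every WT library in labelled KO libraries 1 and 2. Of the endothelial markers 7 of 9 were below every WT library. The sums overlapped for theca and stroma (201 to 379 FPKM in WT and 174 to 224 in labelled KO), oocytes (41.3 to 109 and 31.7 to 134) and erythrocytes (262 to 404 and 30.6 to 291). Of the 12 theca and stroma markers, 3 (Acta2, Lum and Pdgfrb) were still below every WT library. Their part in the values of Plau, Adamts5 and Timp3 was not tested.

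In cumulus cells 8 members were tested, as Adamts4 (3 to 20 reads per library) and Timp3 (9 to 76 reads) were below the minimum level in both genotypes. None of the 8 was called by limma with the fold limit, against 8.04% of 12205 genes. At the adjusted p alone, 3 of 8 members passed, Adamts9 as lower and Ctsl and Plat as higher in labelled KO libraries, against 22.3% of all genes. At an unadjusted p of 0.05 or less 4 of 8 passed, against 38.2%, and 3 of 8 had no overlap between the genotypes, against 42.3%. The median log2 fold change was 0.13 over the members and −0.06 over all genes tested.

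Adamts9 was at 2.33, 1.94 and 1.67 FPKM in WT cumulus cells and at 0.610, 0.588 and 1.14 in labelled KO. The genotypes did not overlap, the mean was 2.54-fold lower, and the log2 fold change on the FPKM + 1 scale was −0.75 (SE 0.172, limma adjusted p = 0.0180). As that scale understates changes of low transcripts, it was −1.28 with a pseudocount of 0.1 and −1.40 with reads, and was then called. Leaving out single libraries gave limma adjusted p-values of 0.0223 to 0.0690, above 0.05 without WT library 1, WT library 2 or labelled KO library 2.

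Ctsl was at 1599, 2192 and 2075 FPKM in WT cumulus cells and at 2787, 3345 and 2616 in labelled KO, a mean 1.49 times as high (log2 fold change 0.58, SE 0.173, limma adjusted p = 0.0452). Every labelled KO library lay above every WT library. Leaving out single libraries gave limma adjusted p-values of 0.0413 to 0.155, and it stayed under 0.05 only without labelled KO library 1. The mean level of Ctsl was thus higher in labelled KO libraries of both cell types, and the difference between the cell types was −0.26 (limma adjusted p = 0.601). In MGCs Ctsl passed the adjusted p without labelled KO library 3 (log2 fold change 0.92, limma adjusted p = 0.0415), again under the fold limit.

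Plat was at 0.209, 0.134 and 0.182 FPKM in WT cumulus cells and at 0.621, 0.495 and 0.744 in labelled KO, from 15 to 21 reads in WT and 61 to 89 in labelled KO. It reached the minimum for testing only through the labelled KO group, so that it had to be higher there if it was tested at all. The mean was 3.54 times as high, and the log2 fold change on the FPKM + 1 scale was 0.46 (SE 0.131, limma adjusted p = 0.0386), 1.38 with a pseudocount of 0.1 and 1.80 with reads. Leaving out single libraries gave limma adjusted p-values of 0.0485 to 0.125, and it stayed under 0.05 only without labelled KO library 1.

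The remaining members did not pass the test in cumulus cells. Adamts5 was at 8.66, 4.54 and 2.85 FPKM in WT and at 1.66, 3.28 and 2.01 in labelled KO, a mean 2.31-fold lower with overlapping groups (log2 fold change −0.86, SE 0.330, limma adjusted p = 0.0947). Without WT library 3 it was called (−1.17, limma adjusted p = 0.0408), and with reads as well (−1.12, limma adjusted p = 0.0404). Timp1 was at 10.0, 7.33 and 12.5 FPKM in WT and at 10.2, 17.6 and 22.5 in labelled KO (log2 fold change 0.66, SE 0.293, limma adjusted p = 0.136). Adamts1 (log2 fold change −0.33, 95% interval −1.06 to 0.40), Serpine2 (0.28, −0.16 to 0.72) and Plau (−0.03, −0.55 to 0.50) overlapped between the genotypes. Timp3 was at 0.137, 0.0615 and 0.196 FPKM in WT and at 0.189, 0.472 and 0.455 in labelled KO, and Adamts4 at 0.155, 0.139 and 0.237 and at 0.0331, 0.179 and 0.108, both too low to test.

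Summed markers of endothelium, oocytes and erythrocytes were lower in labelled KO cumulus libraries. The sums were 0.602 to 0.871 FPKM for endothelium (1.15 to 1.85 in WT), 2.98 to 3.15 for oocytes (4.76 to 8.77) and 0.3002 to 1.78 for erythrocytes (4.37 to 26.8). Of the single markers, 2 of 9 for endothelium, 6 of 12 for oocytes and 1 of 5 for erythrocytes lay below every WT library in all labelled KO libraries. The sums of leukocyte markers overlapped (10.8 to 59.0 FPKM in labelled KO and 5.98 to 56.0 in WT), and so did those of theca and stroma (13.2 to 34.9 and 19.2 to 68.4). Single theca and stroma markers did not move as one. Of these 12, 6 (Col1a1, Col3a1, Cyp17a1, Lum, Mfap5 and Tcf21) lay wholly below WT and 2 (Pdgfra and Pdgfrb) wholly above. Of the 12 leukocyte markers, 2 (S100a8 and S100a9) lay wholly below and 1 (Cd14) wholly above. The granulosa cell markers summed to 2728 to 3092 FPKM in labelled KO and 3989 to 5170 in WT, and 6 of 10 lay wholly below WT. Those of cumulus expansion summed to 1182 to 1476 and 376 to 843 FPKM, and 2 of 7 (Ptx3 and Tnfaip6) lay above every WT library in all labelled KO libraries. Their part in the values of Adamts9, Ctsl and Plat was not tested.

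A test of the difference between the genotype effects of cumulus cells and MGCs called 0 of 10 members at a limma adjusted p of 0.05 or less, against 3.93% of 15869 genes. At an unadjusted p of 0.05 or less 3 members were counted, against 22.1%: Plat (difference of log2 fold changes, cumulus minus MGC, 1.11, SE 0.360, limma adjusted p = 0.101), Plau (1.25, SE 0.530, limma adjusted p = 0.194) and Timp3 (0.73, SE 0.215, limma adjusted p = 0.0772). For each of them the labelled KO mean was below the WT mean in MGCs and at or above it in cumulus cells. Timp3 was too low in cumulus cells to be tested there, and Plat reached the minimum level there only in labelled KO libraries. The cumulus side of the differences of Timp3 and Plat thus rests on values near the floor. Adamts5 and Ctsl, whose means differed in the same direction in both cell types, had differences of 0.11 (95% interval −0.83 to 1.05) and −0.26 (−0.81 to 0.30).

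Ratios between members within a library are free of the scaling of that library. Of 7 ratios computed, the genotypes did not overlap for 1 in MGCs (Plau to Serpine2) and for 3 in cumulus cells (Adamts1 to Timp1, Adamts1 to Timp3 and Plau to Plat), where 16.9% and 42.3% of all single genes did not overlap. In MGCs, Plau to Serpine2, an activator set beside an inhibitor that binds it, was 1.18, 1.12 and 0.386 in WT and 0.269, 0.310 and 0.1235 in labelled KO libraries. In cumulus cells the same ratio was 0.00122, 0.00145 and 0.000888 in WT and 0.00087, 0.000414 and 0.00165 in labelled KO. Adamts1 to Timp1 was 0.566, 0.315 and 0.475 in WT and 0.208, 0.208 and 0.192 in labelled KO cumulus cells, while in MGCs it was 3.07 to 4.70 and 3.20 to 5.71. Adamts1 to Timp3 was 30.3 to 41.2 in WT and 7.76 to 11.2 in labelled KO cumulus cells, and Plau to Plat 4.14 to 8.79 and 0.735 to 2.10, each with a low gene as the divisor. Adamts1 to Adamts5 and Adamts1 to Adamts9 overlapped between the genotypes in both cell types. Ctsl to Serpine2 was 1.03 to 1.79 over the 6 MGC libraries and 2.07 to 3.81 over the 6 cumulus libraries, with overlapping genotypes in both. These ratios were given no test.

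Other genes of the same systems were counted from 7 lists. In MGCs 0 of the 64 genes tested were called between the genotypes (background 0.0393%), and 2 of 65 without labelled KO library 3 (Ptx3 as higher and Mmp8 as lower), against 1.12% of all genes. The median log2 fold change was −0.34 for matrix metalloproteases (10 tested of 18 listed) and −0.305 for cathepsins and cystatins (13 of 13), against −0.003 for all genes. For other inhibitors of matrix proteases and related genes (9 of 12) it was −0.34. All 9 had values under 0, as had 7715 of 15279 genes. This list also holds Pcolce (−0.63) and Serpinh1 (−0.37), which are not inhibitors of matrix proteases, and its median without them was not computed. It was −0.10 for plasminogen activation (8 of 12), −0.075 for other ADAMTS genes (8 of 15), −0.045 for substrates and partners of ADAMTS proteases (8 of 12) and 0.02 for ADAM sheddases (8 of 10). Without labelled KO library 3 the median of the substrates and partners was 0.60, with 2 of 8 values under 0, that of the metalloproteases was −0.48 and those of the other 5 lists lay between −0.28 and −0.03, against −0.09 for all genes.

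In cumulus cells 7 of 42 tested genes of these lists were called, or 16.7% against 8.04% of all genes. Of these 7, Cd44 and Ctss reached the minimum level for testing only through the labelled KO group. In plasminogen activation (6 of 12 tested), Plaur, the urokinase receptor, rose from 2.79 ± 1.54 to 12.8 ± 5.90 FPKM (n = 3; log2 fold change 1.85, SE 0.360, limma adjusted p = 0.0102). Plgrkt, a plasminogen receptor, fell from 37.4 ± 4.42 to 17.0 ± 0.732 FPKM (log2 fold change −1.09, SE 0.149, limma adjusted p = 0.00304). The difference of these genotype effects between cumulus cells and MGCs passed the adjusted p for both, Plaur (2.46, SE 0.579, limma adjusted p = 0.0394) and Plgrkt (−1.44, SE 0.185, limma adjusted p = 0.00433). In all, 10 of 64 listed genes passed, against 3.93% of all genes, and the same 10 passed without labelled KO library 3 of the MGCs (16 of 65, against 6.45%). The others were Anxa2, S100a10, Spint2, Ctsa, Lgmn and Ctsf, with positive values, and Mmp9 and Mmp15, which were too low in cumulus cells to be tested there, so that their differences hold the MGC values alone. Plau itself was at 0.977 ± 0.172 FPKM in WT and at 1.00 ± 0.604 in labelled KO cumulus cells.

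Among substrates and partners (6 of 12 tested), 3 were called as higher: Cd44, the hyaluronan receptor (0.299 ± 0.0680 to 5.58 ± 1.35 FPKM, limma adjusted p = 0.00035), Ptx3, which crosslinks hyaluronan in the cumulus matrix (145 ± 66.0 to 462 ± 108, limma adjusted p = 0.00838), and Tnfaip6, which works with it (188 ± 84.0 to 535 ± 97.0, limma adjusted p = 0.00937). Vcan, the versican substrate of Adamts1, was at 13.8 ± 1.68 and 7.96 ± 1.32 FPKM and passed the adjusted p without the fold limit (log2 fold change −0.73, limma adjusted p = 0.0203). Among cathepsins and cystatins (13 of 13 tested) Ctsf (log2 fold change 1.59, limma adjusted p = 0.00158) and Ctss (1.27, limma adjusted p = 0.0404) were called as higher. Cd44 and Ctss (0.354 ± 0.323 to 2.49 ± 1.61 FPKM) were under the minimum level for testing in WT, so that they had to be higher in labelled KO libraries if tested at all. A further 3 passed the adjusted p in that direction (Ctsb, Ctsa and Lgmn, with log2 fold changes of 0.85, 0.73 and 0.63), and the median of the list was 0.385 against −0.06 for all genes. In the other ADAMTS genes (4 of 15 tested), metalloproteases (2 of 18), other inhibitors and related genes (6 of 12) and ADAM sheddases (5 of 10), 0 were called.

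The gene most like each member over the 12 libraries was found by Pearson's r of log2(FPKM + 1) among 6719 genes averaging 5 FPKM or more. These were Ctsh for Timp3 (0.998), Slc9a7 for Adamts4 (0.999), Robo1 for Adamts1 (0.997), Lmnb1 for Plau (0.997), Clec2d for Plat (0.991), Osbpl6 for Adamts9 (0.989) and Zfp36 for Timp1 (0.985). The values were lower for the members without a large MGC excess: Nudc-ps1 for Ctsl (0.977), Prps1l3 for Serpine2 (0.946) and Txnip for Adamts5 (0.921). The 12 points fall into the 2 cell types, so that these values mostly describe the contrast between MGCs and cumulus cells.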

How the data were processed

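RNA of 12 libraries was sequenced with a kit that does not mark strand, and a company analysed it. The submitters' processing notes name HISAT2 and GRCm38, and the counting tool is not given in the sources used here. The authors deposited FPKM, as 1 table for MGCs and 1 for cumulus cells, and 0 of the columns were left unused. The product of FPKM and GENCODE M21 exon length was a whole multiple of a fixed step for 89.6% to 91.5% of values per library (tolerance 0.02 reads), which gave reads per library and, for levels near detection, per gene. This holds in both tables, and FPKM is scaled within each library, so cell types were compared across the tables, although joint scaling of the tables is not stated.

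Genes averaging 0.5 FPKM or more in a compared group were tested with limma 3.58.1 (trend) in R 4.3.3 on log2(FPKM + 1), with Benjamini-Hochberg adjustment over all genes tested. Calls needed an adjusted p of 0.05 or less together with a difference of 1 or more on the log2 scale, in either direction, and for the difference between cell types at the adjusted p alone. SE is the shrunken standard error. The code was tested on simulated data.

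All 10 members are named, with the called genes of 7 lists of related genes, at most the 5 most abundant of a list, and the gene most like each member. The other genes of those lists were named after their values were seen. Members, lists and tests were chosen with earlier results of these data known. The labels state no common animal, but MGC libraries of the same number deviated together after removal of group means (correlations of 0.220, 0.158 and 0.224), so an alternative has that number as a block. In cumulus cells these correlations were −0.148, −0.0511 and 0.115. Alternatives were another pseudocount, no filter, median ratio scaling, reads with voom, the block, no fold limit, and leaving out libraries. Leaving labelled KO MGC library 3 out of the lists was chosen after seeing the data.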

Additional observations from a re-analysis of the deposited data

How the results depend on the processing

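The counts of members called between cell types were 8 in WT and 8 in labelled KO libraries, and ranged from 8 to 10 and from 7 to 10 over the alternatives. Between the genotypes of MGCs, 0 members were called in all alternatives but 1, the use of libraries 1 and 2 of each genotype alone, which gave 2 (Adamts5 and Plau). In cumulus cells the count of 0 became 2 with a pseudocount of 0.1 (Adamts9 and Plat), 3 with reads and voom (Adamts5, Adamts9 and Plat) and 3 without the limit on the fold change. Leaving out single cumulus libraries gave 0 to 1. Without the filter on low values the adjusted p rose to 0.0725 for Adamts9, 0.219 for Ctsl and 0.107 for Plat, as more genes were tested. For the difference between cell types the count of 0 became 1 with a pseudocount of 0.1 (Plat) and 3 with MGC libraries 1 and 2 alone (Adamts9, Plat and Plau), and leaving out single libraries gave 0 to 1. With MGC libraries 1 and 2 alone the calls over all genes rose as well, as given below, so that the rise is not particular to the members. Over the single log2 fold changes of the members, 566 alternatives left direction and call as they were, 25 added a call, 6 removed one (all for Timp1 between labelled KO cell types) and 21 turned the sign of a value of 6 members that was called neither before nor after. Between the genotypes of MGCs, leaving out single libraries gave −0.29 to 0.16 for Adamts1, −0.41 to 0.043 for Adamts4, −0.58 to 0.28 for Adamts9 and −0.58 to 0.17 for Timp1, above 0 without labelled KO library 3 and, for Adamts1, without WT library 3. Libraries 1 and 2 alone gave 0.41, 0.062, 0.045 and 0.22. In cumulus cells Plau was at 0.011 with the median ratio scaling and at −0.23 to 0.23 without single libraries, above 0 without WT library 2 or labelled KO library 2. For the difference between cell types Adamts4 was at −0.22 with a pseudocount of 0.1, −0.68 with voom, −0.15 with MGC libraries 1 and 2, and −0.13 to 0.32 without single libraries. Adamts5 was at −0.0072 with voom and −0.20 to 0.47 without single libraries, and Adamts1 at −0.57 to 0.0058. The cause was not tested.

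Blocking on the replicate number gave counts of members called of 0 in MGCs, 0 in cumulus cells, 8 and 8 between cell types and 0 for the difference between them. The adjusted p with the block rose to 0.0648 for Ctsl and 0.0743 for Plat in cumulus cells and to 0.0728 for Serpine2 between labelled KO cell types, where the numbers do not pair the libraries. A block within each cell type, chosen after seeing the data, also gave 0 members for the difference.

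Counts over all genes moved further. In MGCs 6 calls became 1 without the filter, 1 with the median ratio scaling, 0 with voom, 3 with the block, 477 with libraries 1 and 2, and 0 to 170 without single libraries (170 without labelled KO library 3). In cumulus cells 981 calls became 1674 with a pseudocount of 0.1, 1965 with voom and 2725 without the fold limit. Between WT cell types 7746 became 12553 without the fold limit. For the difference between cell types, 624 became 327 without the filter, 961 with the median ratio scaling, 2474 with MGC libraries 1 and 2, and 108 to 1189 without single libraries. The cause of these moves was not tested. With the median ratio scaling, calls that were higher went from 52.1% to 59.9% in cumulus cells and from 62.3% to 51.2% for the difference between cell types. Levels of members in cumulus cells under 0.2 FPKM rest on 3 to 29 reads in a library, and the spread is estimated from 3 libraries a group.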
